A study of Mus musculus with 30 samples.

Results

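The transcripts described here are the nuclear-encoded mRNAs of the mitochondrial respiratory chain and ATP synthase, measured in RNA from mouse sciatic nerve axoplasm. They were chosen by gene symbol: names starting with Nduf (complex I), Sdha to Sdhd (complex II), Uqcr (complex III), Cox4 to Cox8 (complex IV) or Atp5 (ATP synthase), with names containing -ps left out. The rule found 156 Ensembl transcripts of 87 genes among the 20423 transcripts of the 4 count tables used. By complex, there were 65 transcripts of 36 complex I genes, 7 of 6 complex I assembly factors (Ndufaf), 6 of 4 complex II genes, 13 of 8 complex III genes, 23 of 16 complex IV genes, with Ndufa4 and Ndufa4l2 counted there, and 39 of 15 ATP synthase genes. The remaining 3 transcripts belong to Atp5s and Atp5sl, which share the name but are not subunits.

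Axoplasm is the cytoplasm of axons, here a low-speed supernatant of ground whole nerve, so it also carries RNA of the glia and other cells around the axons. There were 10 groups of 3 libraries: input RNA, nucleolin immunoprecipitate (IP), PTBP1 IP and, for each antibody, a control IP with the antibody blocked by its peptide, all from uninjured (naive) mice and from mice 7 days after sciatic nerve crush. Each library came from 10 pooled nerves, and the 3 repeats were described as independent. Genotype, strain and age were not given in the sources used here. Nucleolin and PTBP1 are RNA-binding proteins, and the comparison of IP with blocked IP asks which RNAs the antibody brings down through its target. In these bulk samples, fewer cells of a type and less RNA per cell cannot be told apart.

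The respiratory chain carries electrons from NADH and succinate to oxygen through complexes I to IV in the inner mitochondrial membrane, and the resulting proton gradient drives ATP synthase. Most of its subunits are encoded in the nucleus, made in the cytoplasm and imported, and a few core subunits are encoded by mitochondrial DNA. Axons hold many mitochondria far from the cell body, and some mRNAs for mitochondrial proteins are known to be present in axons. The mitochondrially encoded mRNAs were not analysed here.

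Protein-coding members were short mRNAs, with a median length of 809 nt against 2817 nt for all listed protein-coding transcripts. Their median coding length was 408 nt against 1227 nt, while median GC content was close, 50.5% against 49.8%. Of the 156 transcripts, 99 were annotated as protein-coding, 39 as retained-intron and 16 as processed transcripts without an open reading frame. In 38 of the 87 genes 2 or more transcripts were listed, and such transcripts share exons, so how reads were divided between them is uncertain.

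Because nuclear respiratory chain genes are textbook targets of the factors NRF1, GABP and YY1, their promoters were read from the RefSeq table (GRCm38.p6; 250 bases before to 50 after the start), where 70 of the 87 genes matched with 75 windows. The NRF1 consensus of 10 letters (1 of them free) occurred on either strand in 26.7% of member windows and in 4.60% of all 32851 windows. CCGGAAG, the core bound by ETS factors such as GABP, occurred in 21.3% against 8.86%, and AAGATGGCG, a YY1 site, in 9.33% against 1.40%. At least 1 of the 3 was present in 49.3% of member windows and 13.6% of all. The 4 stretches printed here compare a complex I gene and a widely expressed complex IV isoform gene, both with an NRF1 match (in capitals), with the promoters of a pair of muscle isoform genes of complex IV, whose stretches held none of the 3. Each runs 5′ to 3′ and is the longest run before the start that no annotated exon covers.
Ndufb4, chr16:37654454-37654618, minus strand: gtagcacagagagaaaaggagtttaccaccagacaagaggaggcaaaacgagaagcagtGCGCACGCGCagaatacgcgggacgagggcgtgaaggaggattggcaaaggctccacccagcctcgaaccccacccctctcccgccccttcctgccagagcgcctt
Cox6a1, chr5:115348982-115349129, minus strand: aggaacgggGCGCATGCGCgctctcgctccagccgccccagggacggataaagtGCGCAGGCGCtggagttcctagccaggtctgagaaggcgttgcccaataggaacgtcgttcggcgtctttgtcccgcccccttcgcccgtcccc
Cox7a1, chr7:30183921-30184143, plus strand: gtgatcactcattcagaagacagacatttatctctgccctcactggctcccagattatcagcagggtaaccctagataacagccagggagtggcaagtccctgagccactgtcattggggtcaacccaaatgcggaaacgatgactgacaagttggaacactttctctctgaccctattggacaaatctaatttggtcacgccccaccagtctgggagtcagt
Cox8b, chr7:140900447-140900696, minus strand: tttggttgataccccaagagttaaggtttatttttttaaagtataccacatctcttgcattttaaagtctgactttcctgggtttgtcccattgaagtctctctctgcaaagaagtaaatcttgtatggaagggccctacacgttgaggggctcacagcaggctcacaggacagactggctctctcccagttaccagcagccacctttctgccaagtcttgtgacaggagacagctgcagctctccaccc
The Cox6a1 stretch held 2 NRF1 matches and the Ndufb4 stretch 1. An NRF1 match was about as frequent among windows of genes with a transcript that fell in injured input (22.6% of 31) as among windows of genes tested there and not called (29.7% of 37). These matches describe letters only.

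Library totals lay between 7536033 and 22919174 counts. In the input libraries, transcripts of Lars2, Gm15564 and Yam1 took 57.5% of the counts of injured input 1, 24.5% of injured input 2 and 7.42% of injured input 3, against 0.921% to 7.41% in the naive libraries. Levels are therefore given as CPM, counts scaled to a common library size, with TMM factors, which reduces the weight of such dominant transcripts. Axon and neuron markers were listed at low levels: 7 of 8 such genes summed to 144 to 202 CPM in naive and 109 to 166 CPM in injured input. Markers of myelinating Schwann cells summed to 27338 to 50485 CPM in naive and 4564 to 7170 CPM in injured input. Macrophage markers summed to 724 to 1409 CPM in naive and 6975 to 9447 CPM in injured input.

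Many respiratory chain mRNAs were lower in axoplasm input after injury. Of 117 members tested, 34 transcripts of 33 genes fell and 2 rose at an adjusted p under 0.05 (edgeR's quasi-likelihood test, Benjamini-Hochberg over all 14095 transcripts). Over all transcripts 13.4% were called lower and 14.5% higher. The median log2 fold change of the members was -0.75, against 0.00 for all transcripts, and 88 of the 117 lay below 0. In 52 members every injured library lay below every naive one, which held for 21.9% of all transcripts, and in 5 every injured library lay above, against 22.5% of all. DESeq2 called 42 members lower and 3 higher, against 16.5% and 17.0% of all. Summed over the 118 listed members, the naive input libraries held 7219, 8551 and 8956 CPM and the injured ones 4318, 4597 and 5312 CPM, so the groups did not overlap. With library totals in place of TMM, 27 members fell and none rose, and the median moved to -1.04, while the median of all transcripts moved to -0.26 and the calls over all transcripts from 2037 higher and 1887 lower to 846 higher and 1481 lower. Without naive input 2 the count of members that fell was 18, and without injured input 2 it was 20. All 36 calls kept their direction with either library left out.

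**Figure D1:**
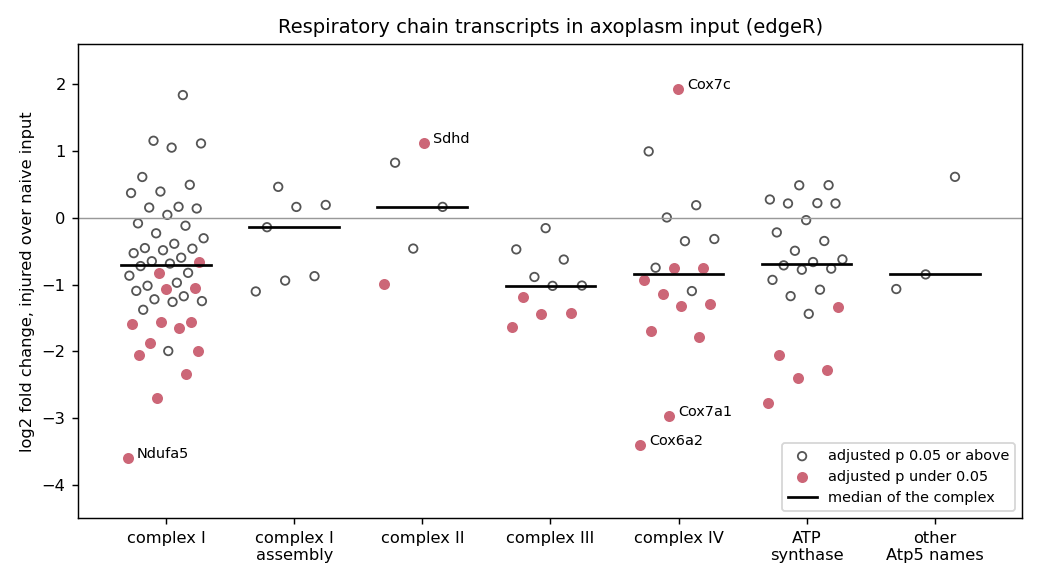
Log2 fold change of each of the 117 respiratory chain transcripts, injured over naive input (y axis), by complex (x axis). Filled points have an adjusted p under 0.05, open points do not, and bars are medians. Most points lie below 0 in complexes I, III, IV and ATP synthase, and the 2 filled points above 0 are Sdhd and the second Cox7c transcript.

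Complex I oxidises NADH and is the largest complex of the chain. Of 50 transcripts tested 14 fell and none rose, with a median of -0.71. The largest fall was of Ndufa5 (ENSMUST00000023851, chr6:24518666-24528013), a subunit of the matrix arm, which stood at 114, 109 and 43.1 CPM in naive and 5.69, 5.73 and 10.1 CPM in injured input. The groups did not overlap, and the fitted difference was 12.1-fold (log2 fold change -3.60, SE 0.42, adjusted p 7.6e-05). Ndufa13, also known as GRIM-19 and among the most abundant members, stood at 501, 623 and 506 CPM in naive and 74.2, 117 and 131 CPM in injured input. That is 5.05-fold lower after injury (log2 fold change -2.34, SE 0.26, adjusted p 5.2e-05). Ndufb9 fell from 309 ± 78.1 to 105 ± 44.3 CPM (SD, n = 3 each) and Ndufa6 from 346 ± 58.1 to 167 ± 13.1 CPM. Ndufb11 stood at 165, 211 and 175 CPM in naive and 106, 70.0 and 88.5 CPM in injured input and fell 2.09-fold. These are accessory subunits, which surround the catalytic core. Ndufa3, Ndufb2, Ndufb4, Ndufb6 and Ndufv2, the last a subunit of the NADH-binding module, fell by 1.56 to 2.06 on the log2 scale. Ndufa1 and Ndufc1 fell less, by 0.66 and 0.83. Ndufa7 and Ndufs6 were called through a retained-intron and a nonsense-mediated-decay transcript, both under 6 CPM in every library, and not through their protein-coding transcripts.

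Other complex I transcripts did not pass the test. Ndufa2, an accessory subunit and the member with the highest mean input level in this complex, stood at 359, 545 and 438 CPM in naive and 260, 350 and 277 CPM in injured input. The ranges did not overlap, and edgeR gave an adjusted p of 0.074 for a log2 fold change of -0.60 with an SE of 0.23. Ndufa10, Ndufa8 and Ndufs4 overlapped between the groups, with log2 fold changes of 0.04, -0.12 and -0.23. None of the 7 assembly factor transcripts was called, and their median was -0.14. Ndufaf2 stood at 20.3, 29.6 and 24.2 CPM in naive and 17.3, 27.9 and 21.7 CPM in injured input, which overlapped. Ndufaf3 did not overlap, at a log2 fold change of -0.94 and an adjusted p of 0.086 (edgeR).

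Complex II, succinate dehydrogenase, links the citric acid cycle to the chain, and its 4 genes did not move together. Sdha, the flavoprotein subunit that oxidises succinate, stood at 149, 163 and 139 CPM in naive and 72.4, 83.1 and 72.1 CPM in injured input, a 1.98-fold fall (log2 fold change -0.99, SE 0.21, adjusted p 0.0047, edgeR). Sdhd, a membrane anchor subunit, stood at 181, 188 and 139 CPM in naive and 535, 332 and 234 CPM in injured input, so every injured library lay above every naive one. It rose 2.16-fold (log2 fold change 1.11, SE 0.29, adjusted p 0.013, edgeR). That call rests on injured input 1: without it the log2 fold change was 0.66 with an adjusted p of 0.082, and with library totals it was 0.67 with an adjusted p of 0.33. Sdhc, the other anchor subunit, stood at 145, 159 and 258 CPM in naive and 231, 221 and 178 CPM in injured input. Sdhb, the iron-sulfur subunit, had a log2 fold change of -0.46, and neither was called.

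Complex III passes electrons from ubiquinol to cytochrome c. Of 10 transcripts tested 4 fell and all 10 had a log2 fold change below 0, with a median of -1.02. Uqcrb, a small subunit next to the ubiquinone site, stood at 427, 564 and 466 CPM in naive and 147, 125 and 199 CPM in injured input, and fell 3.09-fold (log2 fold change -1.63, SE 0.24, adjusted p 4.2e-04, edgeR). Uqcr10, Uqcr11 and Uqcrq fell by 1.43, 1.43 and 1.19 on the log2 scale, and of these the libraries of Uqcr11 overlapped between groups. Uqcrfs1, the Rieske iron-sulfur protein, stood at 149, 199 and 321 CPM in naive and 205, 166 and 230 CPM in injured input, overlapping, and its log2 fold change was -0.16. The core proteins Uqcrc1 and Uqcrc2 had log2 fold changes of -0.47 and -1.02 and did not pass the test.

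Complex IV, cytochrome c oxidase, reduces oxygen, and several of its nuclear subunits exist as tissue isoforms. Of 18 transcripts tested 10 fell and 1 rose, with a median of -0.85. Cox8a had the highest level per kilobase of all members in naive input, at 1345 CPM per kb. In injured input it was at 414 CPM per kb, below Ndufa2 (516), Ndufa1 (491), Cox6b1 (439) and Ndufa4 (419 CPM per kb). It stood at 548, 771 and 900 CPM in naive and 260, 133 and 291 CPM in injured input, a 3.25-fold fall (log2 fold change -1.70, SE 0.31, adjusted p 0.0015, edgeR). Cox6b1 stood at 379, 506 and 494 CPM in naive and 282, 242 and 291 CPM in injured input and fell 1.69-fold. Cox5b fell 2.49-fold, Cox7b 2.45-fold, Cox7a2 2.20-fold and Ndufa4 1.68-fold. Cox6c fell 3.45-fold through a retained-intron transcript, while its protein-coding transcript had a log2 fold change of -1.10 and was not called. Cox5a overlapped between the groups with a log2 fold change of 0.00.

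Cox7c was called in both directions. Its main transcript (ENSMUST00000131011, 540 nt) stood at 162, 179 and 149 CPM in naive and 112, 57.1 and 87.6 CPM in injured input, and fell by 0.94 on the log2 scale. A second protein-coding transcript (ENSMUST00000132233, 709 nt) stood at 3.92, 3.19 and 2.41 CPM in naive and 12.6, 16.9 and 6.84 CPM in injured input, and rose by 1.93. The second stood below the main transcript in every library, and closest to it in injured input 2 (16.9 beside 57.1 CPM). Its call was lost without injured input 2 (adjusted p 0.086), without naive input 2 (0.057) and with library totals (0.099), all by edgeR. The 2 transcripts overlap in the genome (chr13:86044816-86046904 and chr13:86044821-86046347), and how shared reads were divided between them was not tested.

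The isoforms known from heart and skeletal muscle had the largest differences in this complex. Cox6a2, the striated muscle isoform of subunit 6a, stood at 7.64, 11.3 and 47.1 CPM in naive and 0.494, 2.18 and 3.07 CPM in injured input, and fell 10.6-fold (log2 fold change -3.40, SE 0.74, adjusted p 0.0048, edgeR). Naive input 3 was far above the other naive libraries, yet the groups did not overlap. Cox7a1, the muscle isoform of subunit 7a, stood at 24.8, 48.0 and 52.9 CPM in naive and 2.72, 4.28 and 8.38 CPM in injured input, and fell 7.86-fold. The widely expressed Cox6a1 stood at 79.1, 54.2 and 52.5 CPM in naive and 36.1, 45.8 and 28.7 CPM in injured input, which did not overlap, with a log2 fold change of -0.75 and an adjusted p of 0.067. Ndufa4l2, a hypoxia-inducible relative of Ndufa4, stood at 12.5, 11.8 and 6.65 CPM in naive and 13.6, 10.2 and 11.6 CPM in injured input, with no difference beyond the spread. Cox4i2 was not listed, and Cox8b was analysed only in the IP tables. Beside the muscle isoforms, 4 of the 5 skeletal muscle marker transcripts tested (Tnnc2, Acta1, Ckm, Myh4) fell, with a list median of -2.74 and a summed level of 624 to 1066 CPM in naive and 24.1 to 109 CPM in injured input. All 4 adipocyte markers tested also fell, from a summed 2647 to 3226 CPM to 43.4 to 138 CPM. The part of these cell types in the member values was not tested.

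**Figure D2:**
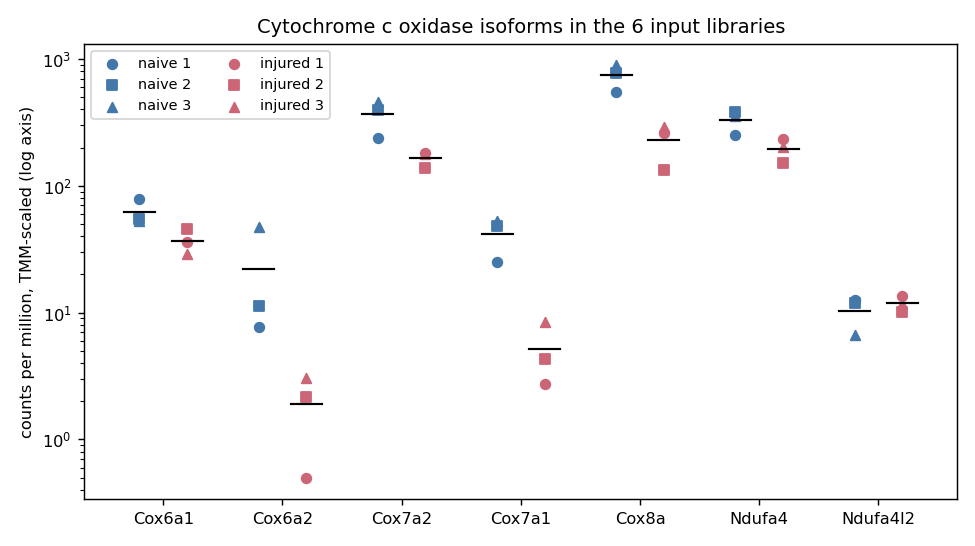
TMM-scaled CPM (log axis) of 7 complex IV transcripts in the 6 input libraries, blue naive and red injured, with marker shape giving the library number and bars the group means. Cox6a2 and Cox7a1, the muscle isoforms, show the widest separation between the groups, and Ndufa4l2 overlaps.

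ATP synthase uses the proton gradient to make ATP. Of 24 transcripts tested 5 fell and none rose, with a median of -0.69. Atp5e, the small epsilon subunit, stood at 22.6, 19.4 and 14.0 CPM in naive and 6.68, 4.84 and 10.6 CPM in injured input, and fell 2.52-fold. Atp5j, coupling factor 6, was called through a protein-coding and a retained-intron transcript, with log2 fold changes of -2.77, where the libraries overlapped between the groups, and -2.06. Atp5k was called through a retained-intron transcript (-2.39) and Atp5g1, one of the genes for the c-ring subunit, through its shorter protein-coding transcript (-2.28). Atp5b, the catalytic beta subunit, stood at 68.8, 62.4 and 31.1 CPM in naive and 131, 38.9 and 21.1 CPM in injured input, so the injured libraries lay on both sides of the naive ones. Atp5l, the g subunit, stood at 58.4, 56.9 and 47.0 CPM in naive and 39.6, 34.8 and 31.3 CPM in injured input, without overlap, at an adjusted p of 0.086. Atp5s had a log2 fold change of -1.07 and the first Atp5sl transcript 0.61, and neither was called.

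Lower values were also seen in short transcripts outside the respiratory chain. Among protein-coding transcripts of 1000 nt or shorter, 23 of 50 members fell, with a median of -0.98, and 175 of 773 other transcripts fell, with a median of -0.40. Retained-intron members had a median of -0.41 against 0.22 for all retained-intron transcripts. The part of transcript length in the differences was not tested.

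Genes of neighbouring metabolic and mitochondrial pathways were read from lists of names, and their counts stand beside the 13.4% lower and 14.5% higher of all transcripts. Among subunits and carriers that the names missed, 3 of 7 transcripts fell: Usmg5, an ATP synthase membrane subunit (-2.01), Atpif1, the inhibitor of ATP hydrolysis (-1.40), and Cyc1, cytochrome c1 (-1.13). Assembly factors outside the rule gave 7 lower and 1 higher of 39, with Cox20 (-2.55), Surf1 (-2.24) and Uqcc2 (-2.04) among those that fell and Taco1, a translational activator of mitochondrial COX1, at 2.01. In the citric acid cycle and pyruvate dehydrogenase 6 of 18 transcripts fell and none rose, among them Idh3a (-1.37) and Idh3b (-1.32). Mitochondrial ribosomal protein transcripts gave 12 lower and 2 higher of 73, with a median of -0.24. The shares called lower among these and among the assembly factors were near that of all transcripts. The shares called higher, 2 of 73 and 1 of 39, were below the 14.5% of all transcripts. Mitochondrial import and outer membrane genes gave 4 lower and 2 higher of 20, and Ppargc1a, the coactivator PGC-1alpha, was the 1 of 13 biogenesis regulators called, at -2.24. In glycolysis 5 of 21 transcripts rose, Slc16a3 (4.05), Hk2 (2.24), Pgam1 (2.05), Ldha (1.72) and Gpi1 (1.21), and 3 fell, Ldhb (-2.51), Slc2a1 (-1.81) and Slc16a1 (-1.17). The list median was 0.63, while its summed level was lower after injury, at 1996 to 2628 CPM in naive and 1579 to 1785 CPM in injured input. Fatty acid oxidation had 1 of 16 higher, Cpt1a (0.96), and 1 lower, Hadh (-2.65).

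In the immunoprecipitates the IP libraries numbered 3 stood apart from the other 2 of their groups. Members took 0.322%, 0.441% and 0.905% of the counts in naive nucleolin IP 1, 2 and 3, and 0.169%, 0.202% and 0.534% in injured nucleolin IP. For nucleolin, 148 members were listed in naive and 112 in injured nerve. Naive and injured nucleolin shares, IP and blocked, therefore cover different sets of transcripts. In PTBP1 IP the shares were 0.247%, 0.568% and 0.905% in naive and 0.0668%, 0.0800% and 0.368% in injured nerve. The blocked libraries held 0.908% to 1.82% in naive and 0.310% to 0.618% in injured nerve, so that each IP 3 library was close to, or within, the range of its blocked controls and the other 8 IP libraries were below that range. Input held 0.809% to 1.09% in naive and 0.285% to 0.584% in injured nerve. All these shares are of listed counts without TMM factors. Lars2, Gm15564 and Yam1 took 57.5%, 24.5% and 7.42% of the counts of injured input 1, 2 and 3. That lowers the member share most in injured input 1. Medians are given with and without the libraries numbered 3. Each IP 3 library held the highest member share of its group, so leaving it out lowers the IP values of members. Lower medians or added calls of IP over blocked IP or input without it are therefore no separate support.

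**Figure D3:**
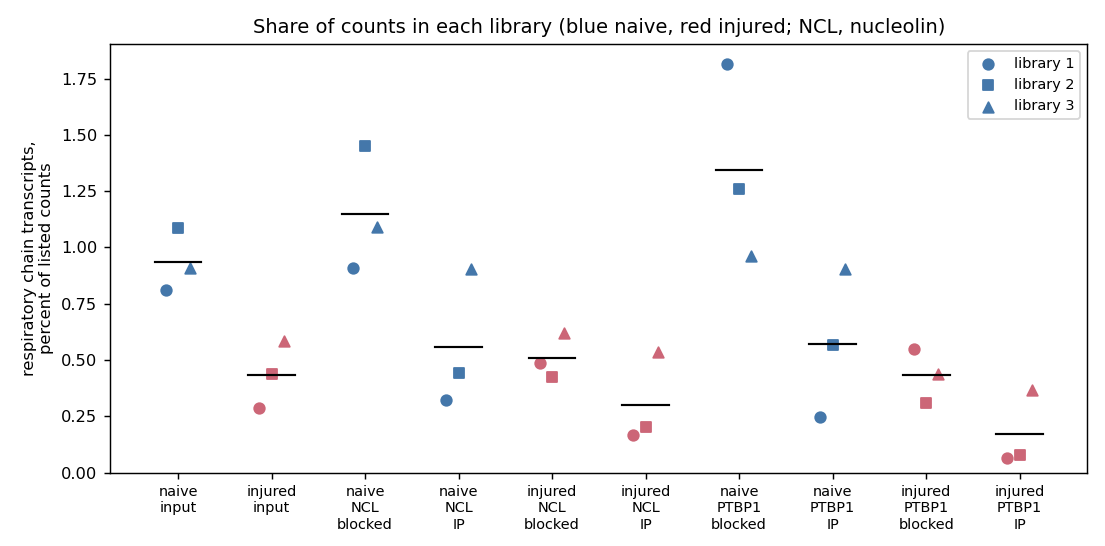
Share of listed counts held by respiratory chain transcripts (y axis, percent) in each of the 30 libraries by group (x axis). Marker shape gives the library number, bars are means, blue is naive and red injured. Shares are of all listed counts without TMM factors. The nucleolin libraries list 148 members in naive and 112 in injured nerve. In all 4 IP groups the triangle, library 3, is the highest point.

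Respiratory chain mRNAs were not called as enriched with nucleolin. No member was called in nucleolin IP over blocked IP by edgeR, in naive or in injured nerve, and 0.0% of all 11840 transcripts were called in either direction. At an unadjusted p under 0.05, 11 of 108 members were lower and 1 higher in naive nerve, against 3.69% and 8.32% of all transcripts, and 3 were lower and none higher in injured nerve, against 1.08% and 5.41%. DESeq2 called no member in either condition, where it called 5.93% of all transcripts higher and 0.581% lower in naive and 2.64% higher and 0.0427% lower in injured nerve. The median log2 fold change was -0.91 in naive nerve against -0.11 for all transcripts, with 89 of 108 below 0, and -0.60 against -0.06 in injured nerve, with 85 below 0. Without the libraries numbered 3 the medians were -1.31 and -0.77, and 1 member was called lower in naive nerve. Other omissions moved them towards 0: the injured median was -0.17 without injured blocked library 3 alone. The naive median was -0.70 without naive IP 1 alone. Every IP library lay below every blocked one for 27 members in naive and 8 in injured nerve, which held for 6.28% and 6.02% of all transcripts.

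Cox8a stood at 405, 768 and 1021 CPM in naive blocked nucleolin libraries and 235, 288 and 869 CPM in naive IP. Uqcrfs1 stood at 381, 272 and 293 CPM blocked and 79.4, 126 and 249 CPM in IP, without overlap (log2 difference -1.06, SE 0.50; edgeR adjusted p 0.42). Sdhd stood at 180, 302 and 257 CPM blocked and 29.8, 82.3 and 191 CPM in IP. In each case IP libraries 1 and 2 were low and library 3 was within or just under the blocked range. Cox8b, the muscle isoform of subunit 8, stood at 48.6, 155 and 63.5 CPM blocked and from 7.69 to 48.0 CPM in IP, without overlap. Ndufa13 (267, 663 and 785 CPM blocked, 169, 313 and 643 CPM in IP) and Atp5b (153, 252 and 78.6 CPM blocked, 33.9, 65.3 and 91.7 CPM in IP) overlapped.

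Injury did not detectably change the nucleolin enrichment of any member. The interaction of IP with injury gave no called member by edgeR, which called 0.0% of all transcripts, and none by DESeq2, which called 0.0598% higher and 0.111% lower. At an unadjusted p under 0.05 there was no member either, against 0.971% of all transcripts higher and 1.58% lower, and the median was 0.36 against 0.04 for all transcripts. It was 0.44 without the libraries numbered 3, and it changed sign, to -0.20, when injured nucleolin IP 3 alone was left out. Within nucleolin IP, injured over naive gave no called member (0.397% of all transcripts were called higher and 0.431% lower), 13 lower and none higher at an unadjusted p (6.17% and 6.22% of all), and 5 lower and none higher by DESeq2 (3.49% and 2.96% of all). The median was -0.86, or -1.02 without the libraries numbered 3. The blocked nucleolin libraries gave no called member either, where 0.735% and 0.819% of all transcripts were called, but 28 were lower and none higher at an unadjusted p (10.4% and 9.7% of all) and DESeq2 called 20 lower and none higher (7.31% and 6.85% of all). Their median was -1.26, or -1.58 without the libraries numbered 3. Cox7a1 stood at 70.3, 24.3 and 61.2 CPM in naive blocked libraries and 0.36, 0.18 and 5.90 CPM in injured ones, and at 45.0, 14.4 and 51.7 CPM in naive IP and 2.17, 2.94 and 5.75 CPM in injured IP. In both the groups did not overlap, and the lower level after injury was thus seen with the antibody blocked as well. Beside it, 4 skeletal muscle markers listed summed to 262 to 925 CPM in naive IP and 10.0 to 83.0 CPM in injured IP, and to 299.5 to 1132 CPM in naive and 5.70 to 127 CPM in injured blocked libraries. Adipocyte markers summed to 2451 to 13700 CPM in naive and 633 to 839 CPM in injured IP, and to 8103 to 34600 and 1269 to 3647 CPM in the blocked libraries. Markers of myelinating Schwann cells summed to 15912 to 32867 CPM in naive and 3666 to 7567 CPM in injured IP, and to 16121 to 38204 and 2616 to 8200 CPM in the blocked libraries. Macrophage markers were higher after injury, at 531 to 1447 CPM in naive and 3988 to 11608 CPM in injured IP, and 1158 to 2083 and 3717 to 10656 CPM in the blocked libraries. The part of these cell types in the member values was not tested.

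Against input, the median of the members in nucleolin IP lay below that of all transcripts. The members share the same libraries, so this median is a description. Nucleolin IP over input gave a median of -0.69 in naive and -0.95 in injured nerve, against 0.09 and 0.04 for all transcripts. No member was called by edgeR in either, where 0.00918% and 0.0367% of all transcripts were called lower and 1.05% and 0.367% higher. At an unadjusted p, 10 of 96 were lower and 2 higher in naive and 19 lower and none higher in injured nerve, against 4.21% lower and 9.45% higher, and 6.51% lower and 8.24% higher, of all transcripts. DESeq2 called 1 lower and 1 higher in naive nerve (0.746% and 5.35% of all) and 4 lower and none higher in injured nerve (3.33% and 5.75%). Without the libraries numbered 3, 10 members were called lower in naive and 14 in injured nerve, with medians of -1.20 and -1.49. Those libraries were left out after seeing the data and include the IP libraries with the highest member share, so these calls are no separate support. In injured nerve the libraries of the same number deviated together, and the fit with the number as a block called 2 members lower. With library totals the injured median was -0.39, while that of all transcripts moved to 0.55.

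PTBP1 gave a similar picture over blocked IP with wider spread. No member of 136 was called in PTBP1 IP over blocked IP in naive or injured nerve, where 0.0% of all 14540 transcripts were called in each direction. At an unadjusted p, 6 members were lower and 3 higher in naive nerve (1.51% lower and 11.5% higher over all transcripts) and 6 lower and 7 higher in injured nerve (1.71% and 10.8%). DESeq2 called 2 lower and 1 higher in naive nerve (0.614% and 7.33% of all) and 1 lower and 3 higher in injured nerve (0.484% and 6.03%). The median was -1.08 against 0.05 for all transcripts in naive nerve, with 108 of 136 below 0, and -0.72 against 0.02 in injured nerve, with 97 below 0. Without the libraries numbered 3 these medians were -1.57 and -1.41. Other omissions moved them towards 0: the naive median was -0.37 without naive blocked library 1 alone. The injured median was -0.44 without injured blocked library 3 alone. Every IP library lay below every blocked one for 30 members in naive nerve, against 4.68% of all transcripts, and for 13 in injured nerve, against 6.31%.

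Cox7a2 stood at 1070, 453 and 358 CPM in naive blocked PTBP1 libraries and 89.1, 174 and 346 CPM in naive IP, without overlap (log2 fold change -1.63, SE 0.86, adjusted p 0.46, edgeR). Cox6b1 stood at 1609, 661 and 508 CPM blocked and 293, 357 and 492 CPM in IP. Cox6a1 stood at 247, 148 and 70.0 CPM blocked and 38.9, 35.6 and 55.0 CPM in IP. In all 3 the groups did not overlap and blocked library 1 was the highest. Uqcrb (507, 232 and 352 CPM blocked, 191, 167 and 322 CPM in IP) and Sdhc (185, 96.6 and 129 CPM blocked, 60.1, 110 and 158 CPM in IP) overlapped. These examples are from naive nerve and do not show the full range, since other members were higher in IP. Over all members the log2 fold change ran from -6.42 to 10.6 in naive and from -4.42 to 7.17 in injured nerve. Adipocyte markers summed to 2861 to 115431 CPM in naive blocked and 3479 to 4617 CPM in naive IP, overlapping. Fibroblast markers summed to 10339 to 19480 CPM in injured blocked and 28898 to 140914 CPM in injured IP, without overlap. Macrophage markers overlapped there, at 2018 to 7361 and 2987 to 7503 CPM. The part of these cell types in the member values was not tested.

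**Figure D4:**
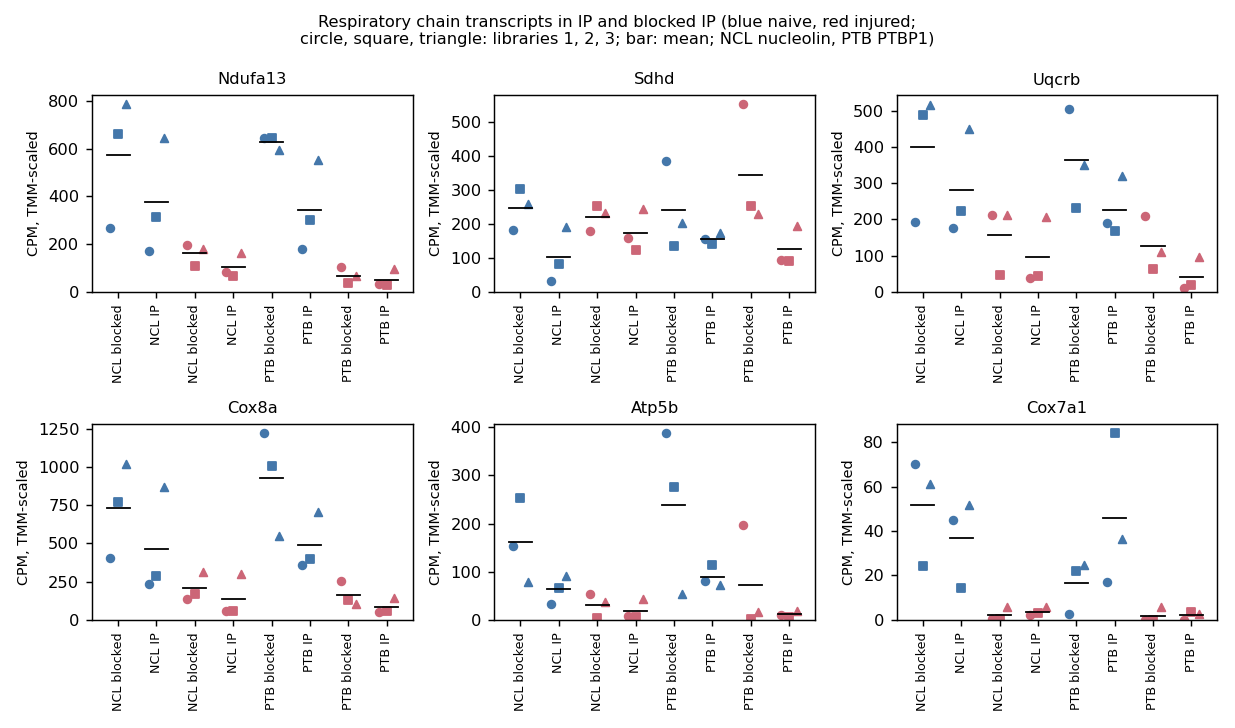
TMM-scaled CPM (y axis) of 6 transcripts in the nucleolin (NCL) and PTBP1 (PTB) libraries by group (x axis), blue naive and red injured, with marker shape giving the library number and bars the means. Cox8a and Ndufa13 are lower in the injured groups in both IP and blocked libraries, and in the injured groups Cox7a1 does not exceed 5.90 CPM.

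PTBP1 is known to bind pyrimidine tracts such as UCUU. Protein-coding members held a median of 4.41 TCTT per kb of transcript against 4.97 for all listed protein-coding transcripts, and their longest pyrimidine run had a median of 10 nt against 14 nt. Across 91 protein-coding members, Spearman's rho between TCTT per kb and the log2 fold change of PTBP1 IP over blocked IP was 0.35 in naive and 0.12 in injured nerve. Over input, across 83 members, it was 0.08 and 0.22. The members share the same libraries, so these are descriptions across transcripts.

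In the PTBP1 libraries the median of the members was lower after injury with and without the blocking peptide, but edgeR called no member. In PTBP1 IP, injured over naive, edgeR called no member (0.00688% of all transcripts higher, 0.0% lower), 32 of 136 were lower and none higher at an unadjusted p, against 5.36% and 4.94% of all, and DESeq2 called 10 lower and none higher (2.3% and 2.59% of all). The median was -2.13 against -0.14 for all transcripts, and -2.28 without the libraries numbered 3. In blocked PTBP1 IP edgeR again called no member (0.0206% of all transcripts higher, 0.00688% lower), 42 were lower and 1 higher at an unadjusted p, against 10.9% and 10.7% of all, and DESeq2 called 39 lower and 2 higher, against 8.9% and 9.15% of all. Beside these, adipocyte markers summed to 2861 to 115431 CPM in naive and 5.64 to 6388 CPM in injured blocked PTBP1 libraries, and their part was not tested. There the median of the members was -2.14 against -0.01, and -2.35 without the libraries numbered 3. The interaction gave no call by edgeR, where 0.0% of all transcripts were called, with 2 members lower and 4 higher at an unadjusted p (4.02% and 3.87% of all) and none lower and 1 higher by DESeq2 (1.81% and 1.25% of all). Its median was 0.19, against -0.08 for all transcripts, and 0.09 without the libraries numbered 3. That median changed sign with several settings: it was -0.73 without injured PTBP1 IP 3, -0.20 without naive blocked PTBP1 library 1 and -0.08 with library totals, where that of all transcripts was -0.37. The 2 members lower at an unadjusted p were Ndufaf4 transcripts, with log2 differences of -15.0 and -7.44 (edgeR adjusted p 0.54 and 0.60).

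Ndufa13 stood at 177, 300 and 553 CPM in naive and 30.6, 27.4 and 92.7 CPM in injured PTBP1 IP (log2 fold change -2.77, SE 0.69, adjusted p 0.26, edgeR), and at 643, 643 and 594 CPM in naive and 101, 34.8 and 64.1 CPM in injured blocked IP (-3.23, SE 0.70, adjusted p 0.090). Neither pair of groups overlapped. Sdhd, whose call as higher in input rested on injured input 1, stood at 155, 141 and 173 CPM in naive and 92.3, 89.4 and 195 CPM in injured PTBP1 IP, overlapping. Cox6a2 stood at 30.1, 61.1 and 20.2 CPM in naive PTBP1 IP and had no count in injured IP 1 and 2, which allows up to 0.157 and 0.202 CPM, and 0.80 CPM in injured IP 3. In blocked PTBP1 IP it stood at 0.25, 23.2 and 45.4 CPM in naive and had no count in any injured library. Each transcript listed for PTBP1 reaches 5 counts throughout at least 1 group, which Cox6a2 could do only in naive nerve. Its low injured values here are therefore no separate support. Cox8b stood at 36.9, 28.2 and 23.7 CPM in naive and 0.98, 0 and 1.53 CPM in injured blocked PTBP1 libraries. Skeletal muscle markers in the PTBP1 table summed to 206 to 1304 CPM in naive IP and 3.92 to 55.2 CPM in injured IP, and their part in these values was not tested.

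The median of PTBP1 IP over input was -0.35 in naive nerve against -0.04 for all transcripts and -1.44 against -0.06 in injured nerve, and without the libraries numbered 3 it was -0.74 and -1.98. No member of 108 was called by edgeR in either condition, where 0.00807% and 0.0646% of all transcripts were called lower and 0.21% and 0.96% higher. At an unadjusted p, 1 member was lower in naive and 23 in injured nerve, against 1.93% and 3.36% of all transcripts, and none was higher, against 5.51% and 5.67%. DESeq2 called none in naive nerve (0.256% of all lower, 3.39% higher) and 5 lower and none higher in injured nerve (1.31% and 5.37%), and leaving out injured PTBP1 IP 3 gave 8 lower by edgeR. The difference between the 2 conditions was not tested in this form. Uqcrb stood lower in every IP library than in every input library in both conditions, with log2 fold changes of -1.03 in naive and -1.88 in injured nerve. These comparisons use the same input libraries as those of nucleolin IP over input, so the 2 sets are not independent.

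**Figure D5:**
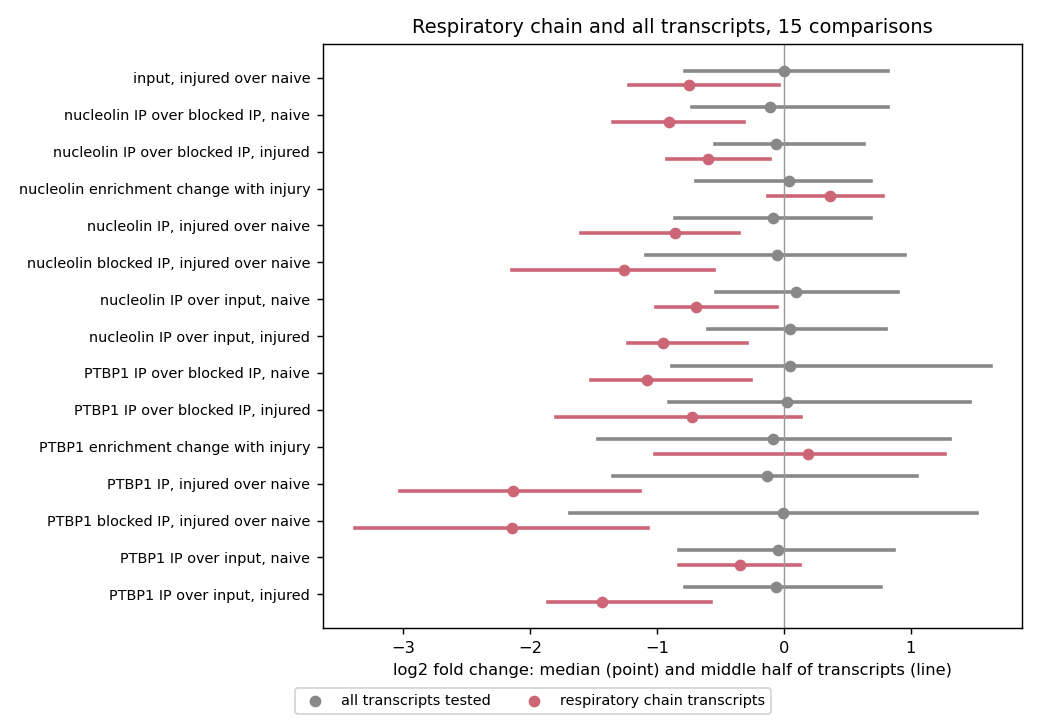
Median log2 fold change (points) and range from the lower to the upper quartile (lines) in the 15 comparisons (y axis), red for respiratory chain transcripts and grey for all transcripts tested. The red median lies below the grey one in all comparisons except the 2 of enrichment change with injury.

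Transcript length and type moved with the IP values. In naive nucleolin IP over blocked IP, protein-coding members of 1000 nt or shorter had a median of -0.94 and the 575 other transcripts of that length -0.56. In naive PTBP1 IP over blocked IP the values were -1.32 and -0.50, and in injured PTBP1 IP over input -1.57 and -1.19. Retained-intron transcripts as a whole stood above blocked IP, with medians of 1.06 for nucleolin and 1.16 for PTBP1 in naive nerve, whereas the retained-intron members had medians of -0.82 over 18 and -0.45 over 31 transcripts. The parts of length and type were not tested. Mitochondrial ribosomal proteins, another set of mostly short mRNAs for imported proteins, had medians of -0.76 in naive nucleolin IP over blocked IP and -1.18 in naive PTBP1 IP over blocked IP, with no transcript called of 71 and 83.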

How the data were processed

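RNA was sequenced from 30 libraries of mouse sciatic nerve axoplasm in 10 groups of 3. The authors deposited whole-number counts per Ensembl transcript in 4 tables used here (naive nucleolin, injured nucleolin, input, PTBP1), per the file headers. Base calling with CASAVA 1.8.2, edgeR and the builds mm10 and GRCm38 are named in the submitters' processing notes; the aligner, the counting tool and any use of strand are not stated there. In 3 of the 4 tables each listed transcript reaches 5 counts throughout at least 1 group, so transcripts low in all groups were absent before this work. The column named PCP3 was taken as naive blocked library 3; for PTBP1 it equalled a column labelled so in another table at 10954 of 10954 transcripts, and for nucleolin it rests on the name. A further 125 per-sample columns were not used.

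Counts were fitted with edgeR 4.0.16 (R 4.3.3): TMM, filterByExpr, glmQLFit and glmQLFTest, two-sided, Benjamini-Hochberg over all transcripts tested, threshold 0.05. There were 15 comparisons: input over 6 libraries, each antibody over its 12, and IP over input over 18. Nucleolin used transcripts listed in both of its tables. The edgeR fit was run on simulated counts for input and for naive IP over blocked IP of each antibody. The other comparisons were not simulated, and no effect of library number was simulated. DESeq2 1.42.0, library totals, no filter, a replicate block, only the compared libraries, each library left out and no library numbered 3 (the last chosen after seeing the data) were alternatives. Transcripts were annotated from GENCODE M21 (GRCm38). Named were called members, the 2 highest input transcripts per complex and the tissue isoforms; other transcripts named were chosen after their values were seen. Members and lists were chosen with earlier results of these data known. Same-numbered libraries correlated above 0.1 in all 3 pairs only for nucleolin IP over input in injured nerve (0.116, 0.158 and 0.159, computed from deviations from group means). In the other comparisons where it was computed, same-numbered libraries also correlated positively in every pair, and some pairs correlated more. The main fits had no term for library number. Nucleolin IP, injured over naive, gave 0.280, 0.0975 and 0.495, and pair 3 of PTBP1 IP, injured over naive, gave 0.263.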

Additional observations from a re-analysis of the deposited data

How the results depend on the processing

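In input, all 36 called members kept their direction under each alternative run, and 36 were called by DESeq2, 35 with the replicate block and 26 with library totals, where none was called higher and the median was -1.04. Leaving out 1 input library gave 18 to 37 members lower, 1 to 2 higher and medians from -0.93 to -0.70. No named transcript reversed its direction past the threshold; 3904 of 4040 values for single transcripts kept their side of it, 64 passed it only under the alternative and 72 lost it. The cause of the other changes was not tested.

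In the IP comparisons, members called lower numbered as follows. For nucleolin IP, injured over naive, 2 were called with the replicate block, 5 by DESeq2 and 2 with only the compared libraries. For blocked nucleolin IP, 7 were called with the block, 20 by DESeq2 and 1 without the libraries numbered 3. Nucleolin IP over blocked IP in naive nerve gave 1 without the libraries numbered 3. Nucleolin IP over input gave, in naive nerve, 1 lower and 1 higher by DESeq2 and 10 lower (median -1.20) without the libraries numbered 3, and in injured nerve 2 with the block, 4 by DESeq2, 4 with only the compared libraries and 14 (median -1.49) without the libraries numbered 3, with a median of -0.39 on library totals. For PTBP1, DESeq2 called 2 lower and 1 higher (IP over blocked IP, naive), 1 lower and 3 higher (injured), 1 higher (enrichment change), 10 lower (IP, injured over naive), 39 lower and 2 higher (blocked) and 5 lower (IP over input, injured). The last gave 2 with only the compared libraries and 1 without the libraries numbered 3. Without those libraries the PTBP1 medians were -1.41 (IP over blocked IP, injured) and -0.74 (IP over input, naive). The libraries numbered 3 were left out after seeing the data and include the IP libraries with the highest member share. Lower values of IP over blocked IP or input without them are no separate support.

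With 1 library left out, nucleolin medians ranged from -1.40 to -0.70 (IP over blocked IP, naive), -0.90 to -0.17 (injured), -0.20 to 0.80 (enrichment change), -1.44 to -0.48 (IP, injured over naive), -1.54 to -1.11 (blocked), -1.21 to -0.49 (IP over input, naive) and -1.52 to -0.72 (injured). PTBP1 medians ranged from -1.29 to -0.37, -1.77 to -0.44, -0.73 to 0.55, -2.87 to -1.83, -2.66 to -1.59, -0.58 to -0.28 and -2.004 to -1.08 in the same order. Lower calls ranged from 0 to 7 and 0 to 13 in nucleolin IP over input (naive, injured; the highest without IP 3), 0 to 1 in blocked nucleolin IP and 0 to 8 in PTBP1 IP over input, injured (the highest without IP 3). With 3 libraries a group and this spread, differences in the IP comparisons that did not pass the test are not shown to be absent.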

Other observations

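The nucleolin tables differed in which members they listed. Of the members, 40 were listed in naive nerve alone, 4 in injured nerve alone and 108 in both, while over all transcripts 2319 were listed in naive nerve alone and 3979 in injured nerve alone. Of the 40, 15 were protein-coding, 16 retained-intron and 8 processed transcripts. Since a table lists only transcripts above a count minimum, this compares lists and not levels.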
